A study of Mus musculus with 2 samples.

Results

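Chromosome 8 held 2093 of the 34597 Hmga2 peaks in the deposited list, of which 34086 lay on the 19 autosomes. The members are all listed peaks on that chromosome. The chromosome itself was chosen on measured values of the same library, because its peaks sat on the highest background of all autosomes. Those values are therefore given as a description, and the other measures of the same peaks are described without a test. The list came from 1 chromatin immunoprecipitation (ChIP) library set against 1 input library, in which no antibody was used. Both were made from E14Tg2a mouse embryonic stem cells. Per the labels the cells were grown with FBS and LIF and then induced, with Activin A and bFGF on Geltrex, into EpiLC (stabilized), and the 2 libraries differed only in the anti-Hmga2 antibody. The methods of the study speak of epiblast stem cells derived from induced pluripotent cells, so the labels and the methods do not name the same cells. No library lacked Hmga2 and none was a replicate, so every interval below covers counting error only, and peaks next to each other share their surroundings and are not independent. The input was used here only through the background it gave the peak caller.

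Hmga2 is a small chromatin protein that is abundant in early embryonic cells. It binds the minor groove of A+T-rich DNA through short basic stretches called AT-hooks and bends the DNA without a long sequence motif of its own. Mouse embryonic stem cells in culture often gain a copy of chromosome 8, and an additional copy adds fragments to the ChIP and to the input library over its whole length, whereas a chromatin domain changes the protein in 1 stretch. The windows below describe which measures of the chromosome 8 peaks were spread over the whole chromosome and which were gathered in stretches. Chromosomes 4, 5 and 2 were set beside it because their base composition is nearest, with 57.7%, 57.5% and 57.9% A+T against 57.6% on chromosome 8 in the GRCm38 sequence. Chromosome copy number itself was not tested.

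Each peak carries a pileup, the mean number of ChIP fragments that cover it, and a fold, the pileup over the background with 1 added to both. The background is the number of fragments that MACS2, the peak caller, takes from the input for that place, and it cannot go below a genome-wide value. It was derived here by solving that fold for the background. The lowest background of the list was 0.843 fragments, and a peak within 1% of it is called a peak at the lowest background. Positions are those of the list, which the labels place on mm9. On chromosome 8, 36 peaks ended past the last base of the GRCm38 chromosome, so the list is not on that build, and no gene or sequence was read from it for these peaks.

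On chromosome 8, 761 peaks or 36.4% (95% Wilson interval 34.3 to 38.4) lay at the lowest background, against 45.0% of the whole list. The share was 44.1% on chromosome 4, 46.4% on chromosome 5 and 43.2% on chromosome 2, or 44.4% (43.2 to 45.6) over the 3 together. Among the other 18 autosomes it ran from 40.2% on chromosome 13, the nearest to chromosome 8, to 49.6% on chromosome 15. The median background of the chromosome 8 peaks was 0.904 fragments (order-statistic interval 0.891 to 0.915), while the medians of the other autosomes ran from 0.853 to 0.881. These are the values by which the chromosome was chosen.

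The ratio to the other autosomes was larger at the higher percentiles of the background. The background has a lowest possible value, and the other 18 autosomes stood near it at the 50th percentile, with 0.866 fragments. This holds the ratio near 1 at low percentiles, so its rise alone does not set the peaks of high background apart. Chromosome 8 exceeded the other 18 autosomes 1.04 times at the 50th percentile of the background, 1.07 times at the 75th, 1.09 times at the 90th and 1.10 times at the 95th. Backgrounds from the lowest up to 1 fragment held like shares, 31.4% of the chromosome 8 peaks and 30.4% of those on chromosomes 4, 5 and 2. Backgrounds of 1 to 1.25 fragments held 20.2% against 17.1%, those of 1.25 to 1.5 held 7.07% against 4.90%, and those of 1.5 to 2 held 3.97% against 2.63%. At 2 fragments or more stood 22 peaks of chromosome 8, or 1.05% (0.695 to 1.59), against 0.532% (0.384 to 0.735).

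**Figure D1:**
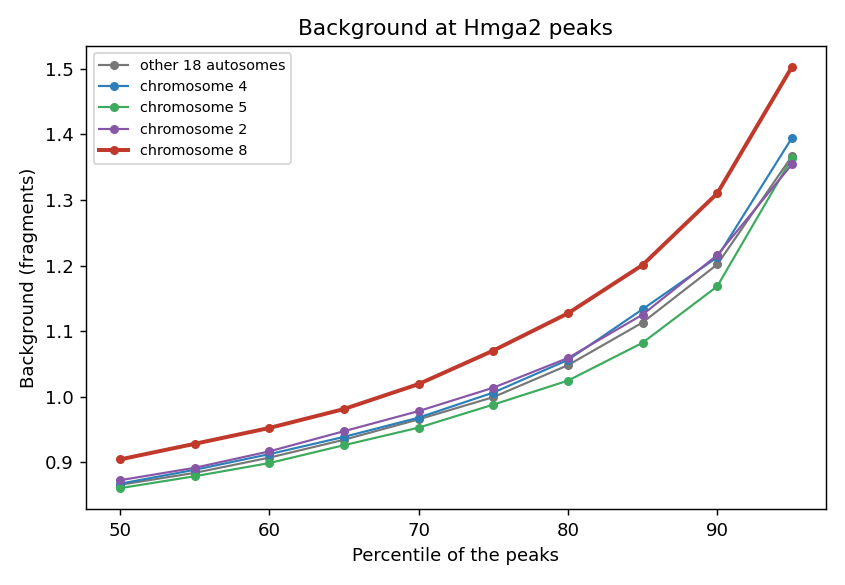
Background in fragments (vertical axis) at given percentiles of the peaks (horizontal axis, 50 to 95) for chromosomes 8, 4, 5 and 2 and for the other 18 autosomes together. The chromosome 8 line lies above the others at every percentile drawn, from 0.904 against 0.866 for the other 18 autosomes at the 50th to 1.5 against 1.37 at the 95th.

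Along the chromosome, the median background was above the autosomal value in most 10 Mb windows, in some by little. Of the 14 windows of 10 Mb, 13 had a median background above the value of all autosomes, 0.867 fragments. The exception was the window from 10 to 20 Mb with 0.863. The corresponding counts were 8 of 16 windows on chromosome 4, 9 of 16 on chromosome 5 and 11 of 18 on chromosome 2, and the highest share on any other autosome was 83.3%, on chromosome 19. With windows shifted by 5 Mb the count on chromosome 8 was 11 of 14. The median reached 0.932 fragments from 20 to 30 Mb, 0.957 from 80 to 90 Mb, 0.953 from 90 to 100 Mb and 1.09 from 120 to 130 Mb, and it was near the autosomal value from 30 to 40 Mb with 0.874 and from 50 to 60 Mb with 0.869.

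The share of peaks at the lowest background varied more widely. It was 47.4% from 10 to 20 Mb, the only window above the autosomal 44.6%. The windows from 30 to 40 Mb and from 50 to 60 Mb stood just below it, with 44.6% and 44.1%. The lowest shares were 22.2% (14.2 to 33.1) from 120 to 130 Mb, 23.0% (16.8 to 30.7) from 80 to 90 Mb, 23.1% (11.0 to 42.1) in the last, short window and 26.4% (18.4 to 36.3) from 90 to 100 Mb. In 5 of the 14 windows, among them those from 40 to 50 Mb with 38.0% (31.3 to 45.1) and from 100 to 110 Mb with 40.9% (34.8 to 47.4), the interval included the 44.4% of chromosomes 4, 5 and 2. Leaving out each window of chromosome 8 in turn kept its share between 35.0%, without the window from 50 to 60 Mb, and 37.3%, without the window from 80 to 90 Mb. Since the chromosome was chosen on this measure, its windows show how the low share was distributed and give no support for it.

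At the finer scale, 84 of the 122 windows of 1 Mb with at least 5 peaks had a median background above that of all autosomes. This is 68.9% (60.2 to 76.4), and the other autosomes ran from 33.3% on chromosome 15 to 59.6% on chromosome 13. Chromosome 4 had 53.0%, chromosome 5 had 55.6% and chromosome 2 had 56.7%. The longest run of such windows on chromosome 8 without a raised median was 6 windows, against 9 on chromosome 4, 7 on chromosome 5 and 9 on chromosome 2. Chromosomes 7 and 11 had runs of 6 as well, and those of chromosomes 9, 13 and 17 were shorter, with 5, 4 and 5.

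**Figure D2:**
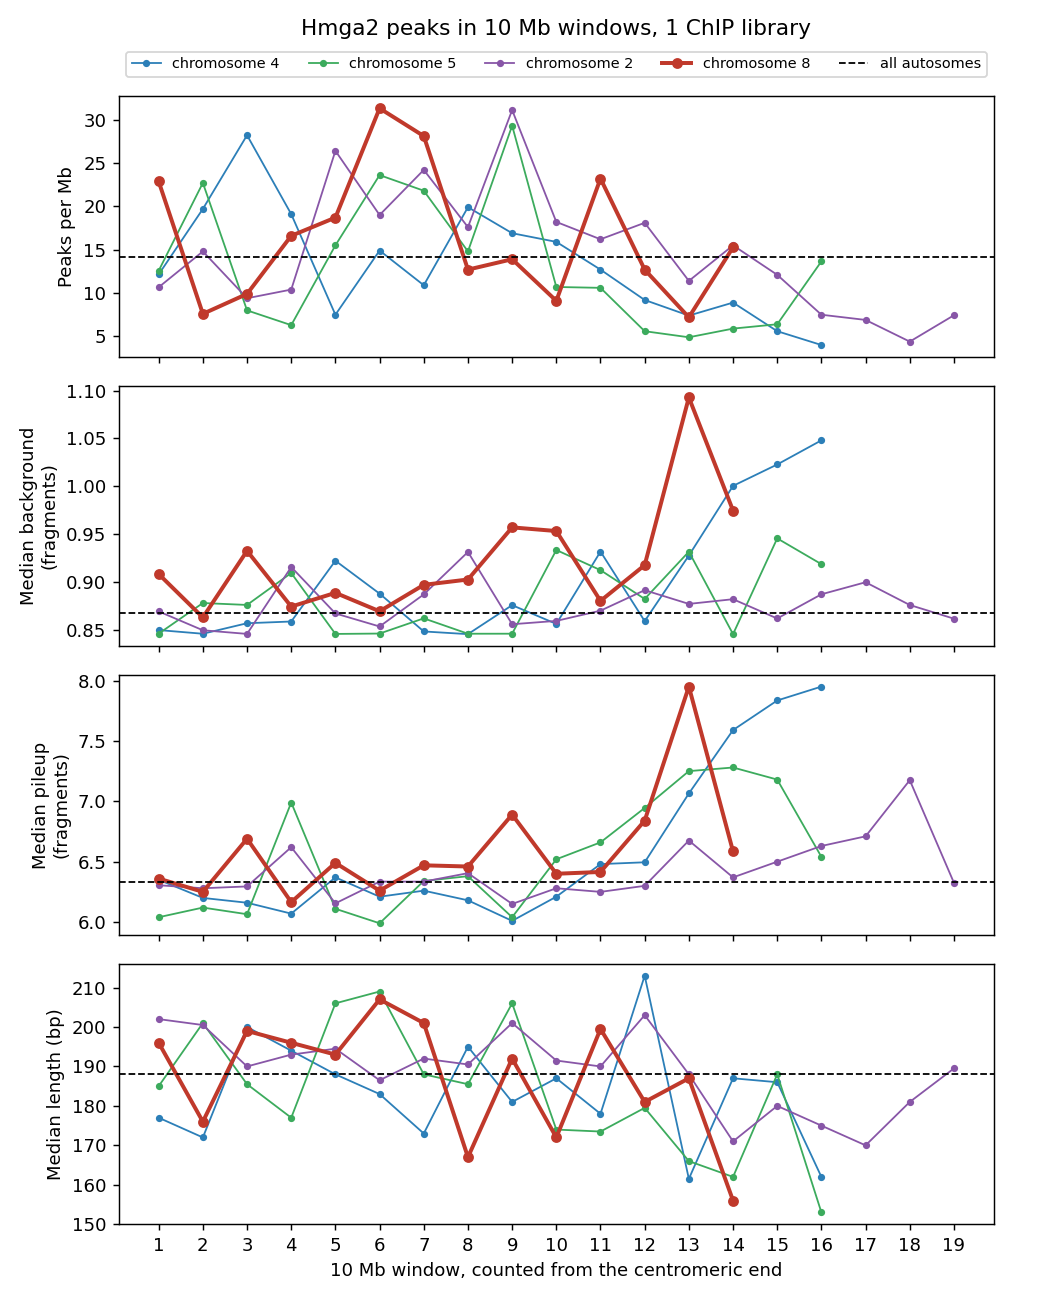
Peaks per Mb, median background, median pileup and median length (vertical axes, top to bottom) in consecutive 10 Mb windows from the centromeric end (horizontal axis) for chromosomes 8, 4, 5 and 2, with the value of all autosomes as a dashed line. On chromosome 8 the background is above the dashed line in 13 of 14 windows, while the density lies above it in 7 windows and below it in 7 and ranges from 7.20 to 31.3 peaks per Mb.

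The 2093 peaks covered a span of 128.6 Mb from the first to the last peak, which is 16.3 peaks per Mb. Chromosome 4 had 13.6, chromosome 5 had 13.3 and chromosome 2 had 15.2, and the ratio of chromosome 8 to the 3 together was 1.15 (counting interval 1.10 to 1.21). Chromosome 8 stood at rank 5 among the autosomes, whose other densities ran from 8.38 on chromosome 7 to 18.1 on chromosome 16, so its density was within the range of the rest. In the 10 Mb windows the density was above the autosomal 14.1 peaks per Mb in 7 windows and below it in 7.

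The fullest windows lay side by side. From 50 to 60 Mb stood 313 peaks (31.3 per Mb, interval 27.9 to 35.0) and from 60 to 70 Mb stood 281 (28.1 per Mb, 24.9 to 31.6). These 20 Mb held 594 peaks, 28.4% of the members in 15.6% of the span. High densities were also found from 100 to 110 Mb, with 23.2 per Mb, and from the first peak to 10 Mb, with 22.9 per Mb. Low densities were found from 10 to 20 Mb with 7.60 per Mb, from 90 to 100 Mb with 9.10, from 20 to 30 Mb with 9.90 and from 120 to 130 Mb with 7.20. The highest window exceeded the lowest 4.35 times, and the coefficient of variation over the 14 windows was 46.2%. The coefficient was no smaller on chromosome 4 with 48.3%, chromosome 5 with 56.9% and chromosome 2 with 46.3%. There the highest window exceeded the lowest 7.03, 5.98 and 7.07 times, more than on chromosome 8. The coefficient of the share at the lowest background was 25.3% on chromosome 8, against 28.1%, 23.3% and 15.7%. That of the median background was 6.52%, against 7.49%, 4.19% and 2.61%, and stood at rank 3 among the autosomes. The window medians thus differed along the chromosome, but these coefficients include counting error and have no interval. Background, pileup and length have a lowest possible value in the list, so their coefficients cannot be set against that of the density.

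Taken 1 by 1, chromosome 8 was 1.2 times as dense as chromosome 4, 1.23 times as dense as chromosome 5 and 1.07 times as dense as chromosome 2. Leaving out single windows of chromosome 8 alone moved the ratio to the 3 together from 1.15 to between 1.06, without the window from 50 to 60 Mb, and 1.21, without that from 120 to 130 Mb. When the 2 fullest windows of every chromosome were left out, chromosome 8 had 13.8 peaks per Mb, chromosome 4 had 12.0, chromosome 5 had 11.2 and chromosome 2 had 13.5. The ratios were then 1.15, 1.23 and 1.02.

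In windows of 1 Mb, chromosome 8 had a median of 13 peaks, with quartiles of 8 and 22, over 127 windows inside its span. The median was 12 on chromosome 4, 10 on chromosome 5 and 13 on chromosome 2, and the 90th percentile was 33 against 25, 31.3 and 29. The variance of the counts exceeded their mean 7.75 times, which placed it between chromosome 4 with 6.12 and chromosome 2 with 5.78 on one side and chromosome 5 with 9.01 on the other. At least 2 times the autosomal mean was reached by 21 windows, 16.5% (11.1 to 24.0), and these held 774 peaks or 37.4% of those in whole windows. The same level was reached by 7.28% of the windows of chromosome 4, 12.2% of chromosome 5 and 11.9% of chromosome 2. Counts of neighbouring windows resembled each other (Spearman's rho 0.65 over 126 pairs, a description across windows of 1 chromosome), and the resemblance was weaker at 5 Mb with 0.23 and at 10 Mb with 0.16.

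The 5 fullest windows of 1 Mb were 52 to 53 Mb with 53 peaks, 61 to 62 Mb with 51, 6 to 7 Mb with 49, 53 to 54 Mb with 46 and 51 to 52 Mb with 42. Joined with their neighbours, the full windows formed runs, the longest from 50 to 56 Mb with 237 peaks. Further runs lay from 5 to 8 Mb with 119 peaks, from 103 to 106 Mb with 96, from 61 to 63 Mb with 81, from 65 to 67 Mb with 75 and from 39 to 41 Mb with 68. The share at the lowest background in these runs had wide intervals, which overlapped. In the run from 39 to 41 Mb 54.4% (42.7 to 65.7) of the peaks were at the lowest background, in the run from 50 to 56 Mb 43.0% (36.9 to 49.4), and in the run from 5 to 8 Mb 36.1% (28.1 to 45.1).

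The emptiest windows were 20 to 21 Mb and 21 to 22 Mb with 0 peaks, and 57 to 58, 123 to 124 and 124 to 125 Mb with 2 each. A window with 0 peaks allows a mean of up to 3.69 peaks by its counting interval. The longest stretch without a peak ran from chr8:19679226-22091804, or 2413 kb. It was followed in length by chr8:56189620-57914447 with 1725 kb and chr8:22149536-22923467 with 774 kb. The longest and the third lay 58 kb apart, and the second bordered the run of full windows from 50 to 56 Mb. Whether reads could be placed in these stretches was not tested.

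**Figure D3:**
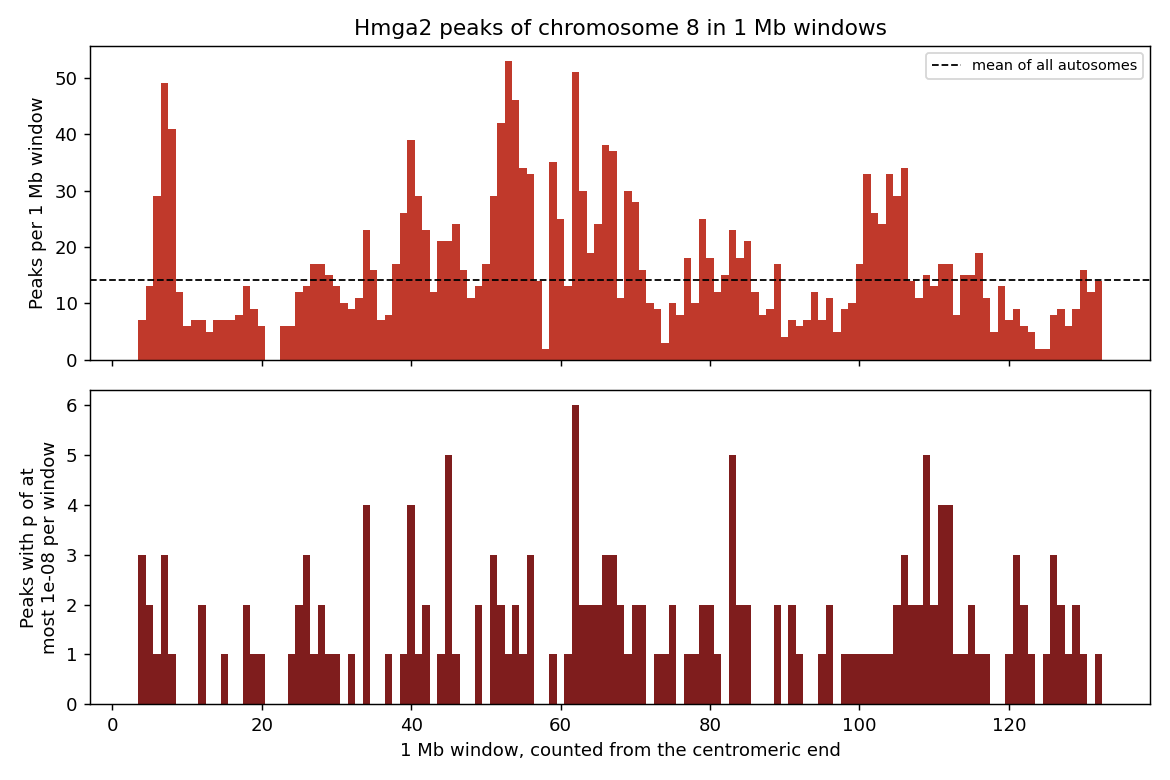
Number of all peaks (upper panel) and of peaks with p of at most 1e-08 (lower panel) of chromosome 8 in consecutive 1 Mb windows from the centromeric end (horizontal axis), with the mean of all autosomes as a dashed line in the upper panel. Windows with at least 2 times the autosomal mean hold 37.4% of all peaks in whole windows, with up to 53 in a window. The stronger peaks are far fewer, 173 of 2093, and number at most 6 in a window, so the 2 maxima cannot be compared directly.

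Between neighbouring peaks the median distance was 30.3 kb, against 35.7 kb on chromosome 4, 35.0 kb on chromosome 5 and 36.0 kb on chromosome 2. A neighbour within 10 kb was present for 737 peaks, 35.2% (33.2 to 37.3). This overlapped the 33.1% (31.1 to 35.1), 33.4% (31.3 to 35.5) and 34.4% (32.7 to 36.2) of chromosomes 4, 5 and 2. Within 50 kb the share was 84.1% (82.5 to 85.6), above the 80.3% (78.6 to 82.0) of chromosome 4 and the 80.1% (78.3 to 81.8) of chromosome 5. It overlapped the 81.7% (80.2 to 83.1) of chromosome 2. Distances over 500 kb occurred 11 times on chromosome 8, against 31, 28 and 15 times. Per 100 Mb of span these were 8.56 on chromosome 8, 20.4 on chromosome 4, 18.7 on chromosome 5 and 8.41 on chromosome 2, so long gaps were as frequent as on chromosome 2.

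The pileup of the members was low, as in the whole list. It ran from 5 to 26.5 fragments with a median of 6.46 and quartiles of 5.63 and 7.73, and 1903 peaks or 90.9% were under 10. A count of 5 fragments alone has an exact Poisson interval of 1.62 to 11.7, so peaks near that level are not distinguished from each other at this depth. The median was 6.29 on chromosome 4, 6.30 on chromosome 5 and 6.34 on chromosome 2. The order-statistic interval of chromosome 8, 6.36 to 6.55, lay above that of the 3 together, 6.28 to 6.34. Among the other autosomes medians ran from 6.19 to 6.59, so that of chromosome 8 was inside their range. The median was above the autosomal 6.33 in 11 of 14 windows of 10 Mb, a share also reached by chromosome 7, and ran from 6.17 (30 to 40 Mb) to 7.95 (120 to 130 Mb).

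Pileup was also compared at equal background. Peaks at the lowest background had a median pileup of 5.89 fragments (5.79 to 6.01) on chromosome 8 and 5.95 on chromosomes 4, 5 and 2, with 5.94 (5.91 to 5.96) on the other 18 autosomes. In the windows of 10 Mb it was above the autosomal 5.93 in 5 of 14. In the classes of background from the lowest to 1 fragment, 1 to 1.25, 1.25 to 1.5 and 1.5 to 2 the medians were 6.11, 6.92, 7.85 and 9.49 on chromosome 8 against 6.16, 6.91, 7.78 and 9.36. At 2 fragments or more, with few peaks, they were 11.6 and 12.1. The median fold, in which the background is divided out, was 3.73 (3.70 to 3.77) against 3.76 (3.74 to 3.78). Within a class the lowest pileup is set by the threshold of the list, which holds the medians close together. The lowest pileup listed on the autosomes was 5.00 fragments at the lowest background, 5.73 at backgrounds of 1.2 to 1.3 and 6.43 at 1.5 to 1.6. Over the 122 windows of 1 Mb the median background and the median pileup rose together on chromosome 8, with a rho of 0.69, given as a description since both come from the same peaks. On chromosomes 4, 5 and 2 it was 0.52, 0.53 and 0.36.

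**Figure D4:**
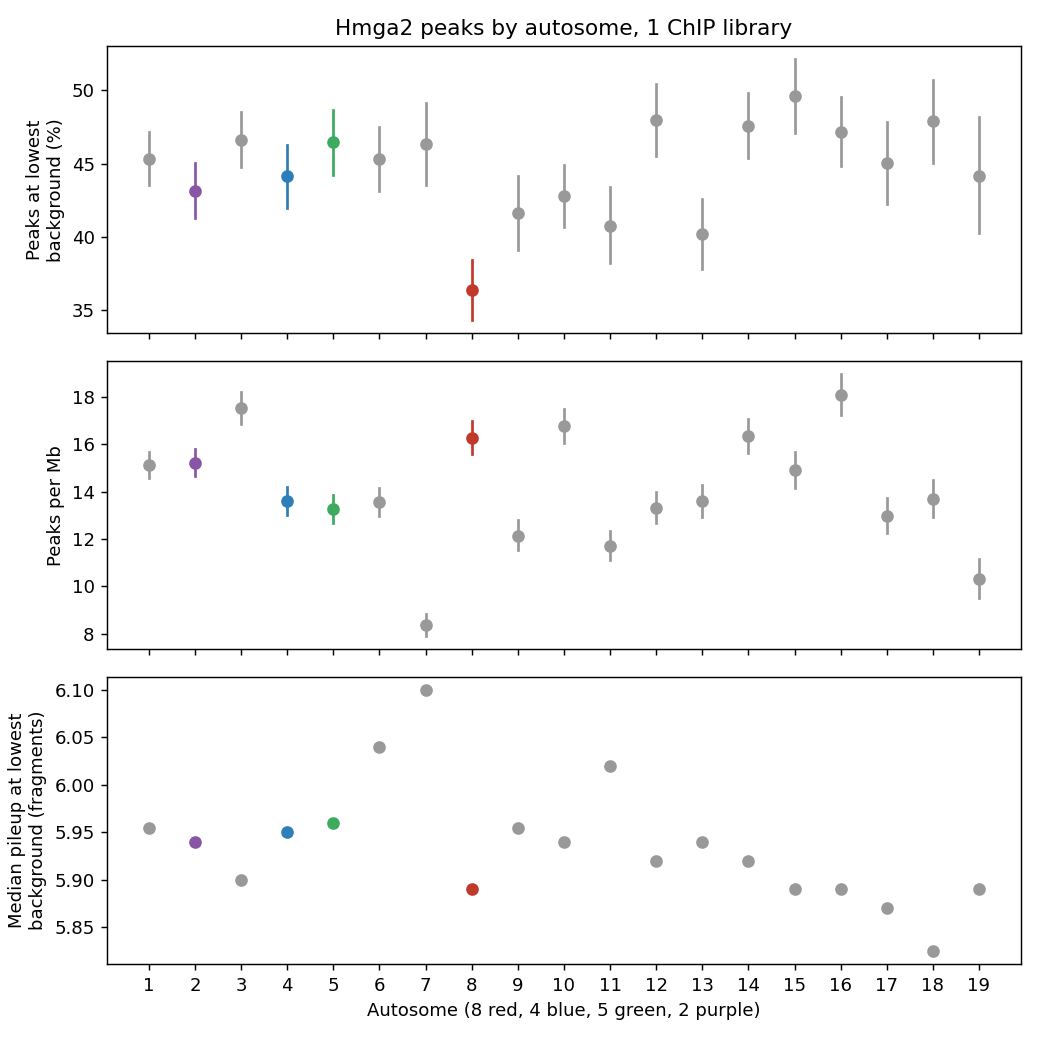
Share of peaks at the lowest background in percent, peaks per Mb and median pileup in fragments of peaks at the lowest background (vertical axes, top to bottom) for the 19 autosomes, with 95% counting intervals as bars in the upper panels and none in the lowest. Chromosome 8, in red, has the lowest share at 36.4%, while its density of 16.3 and its pileup at equal background of 5.89 lie among the other autosomes.

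The members were short. Their length ran from 134 to 917 bp with a median of 194 bp (190 to 198), against 186 bp on chromosome 4, 188 bp on chromosome 5 and 189 bp on chromosome 2, and the medians of the other autosomes ran from 180 bp to the 194 bp of chromosome 13. The median was above the autosomal 188 bp in 8 of 14 windows of 10 Mb, with 207 bp from 50 to 60 Mb and 201 bp from 60 to 70 Mb at the top and 156 bp in the short last window and 167 bp from 70 to 80 Mb at the bottom. The 2 fullest windows thus had the highest median lengths, and over the 1 Mb windows the count and the median length had a rho of 0.34, against 0.22 on chromosome 4, 0.38 on chromosome 5 and 0.10 on chromosome 2. The shortest length of the list, 134 bp, was held by 412 members, 19.7% (18 to 21.4), against 20.7% of the whole list, and 81 members or 3.87% exceeded 500 bp, against 3.84% on chromosomes 4, 5 and 2.

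Length and background were not independent. Of the members of 134 bp, 43.0% (38.3 to 47.8) were at the lowest background, against 56.9% (54.2 to 59.5) on chromosomes 4, 5 and 2, and this was the widest gap among the length classes. It narrowed to 34.6% against 43.3% for 135 to 199 bp, 35.6% against 40.4% for 200 to 299 bp and 36.2% against 41.0% for 300 to 499 bp, and was wider again, on few peaks, at 22.2% (14.5 to 32.4) against 29.9% (24.7 to 35.7) for 500 bp and over. Among peaks at the lowest background the median length was 190 bp on chromosome 8 and 173 bp on the 3 others. From there up to a background of 1 fragment the order was the opposite, with 203 bp against 209 bp.

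The background of the members also depended on how full their surroundings were. In 1 Mb windows of 1 to 9 peaks, 27.6% (22.6 to 33.2) of the chromosome 8 peaks were at the lowest background, against 38.5% (35.5 to 41.5) on chromosomes 4, 5 and 2. In windows of 10 to 19 peaks the shares were 29.2% (26.0 to 32.6) and 43.2% (41.3 to 45.1). In windows of 20 to 29 peaks they did not stand apart, with 44.9% (40.4 to 49.5) and 44.0%. In windows of 30 peaks or more they were 41.9% (38.2 to 45.8) and 50.8%. Chromosome 4 alone had 33.9% (28.8 to 39.4) in the class of 1 to 9 peaks. These shares belong to the measure on which the chromosome was chosen and are given as a description. The median pileup at the lowest background was 6.15, 5.84, 5.86 and 5.85 fragments in the 4 classes on chromosome 8, against 6.29, 5.99, 5.81 and 5.88.

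**Figure D5:**
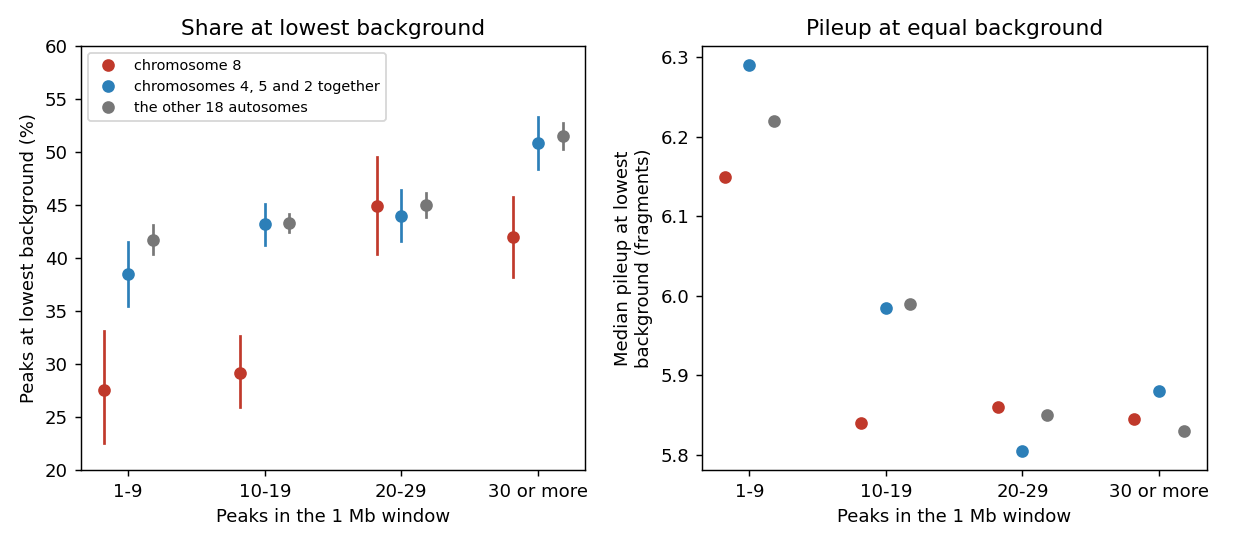
Share of peaks at the lowest background in percent with 95% Wilson intervals (left) and median pileup in fragments of those peaks (right), by the number of peaks in the 1 Mb window (horizontal axes), for chromosome 8, for chromosomes 4, 5 and 2 together and for the other 18 autosomes. The chromosome 8 share is lower in the classes of 1 to 9, 10 to 19 and 30 or more peaks and at the same level, 44.9% against 44.0%, in the class of 20 to 29.

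The stronger peaks were examined apart, since they lie well past the threshold at which the list ends. In the list, 1521 members (72.7%) had a q under 0.05, against 72.5% of the whole list, and 173 members (8.27%, 7.16 to 9.52) had a p of at most 1e-08, against 7.73% of the whole list, so neither share stood apart from the background. The set with a p of at most 1e-08 also required a fold of at least 2, which every peak on chromosome 8 had. Per Mb, there were 1.35 such stronger peaks on chromosome 8 and 1.10 on chromosomes 4, 5 and 2, a ratio of 1.22 (1.03 to 1.45), and chromosome 14 had more with 1.42. Their median pileup was 11.8 fragments (11.4 to 12.4) against 11.5 (11.3 to 11.8), and their median length was 194 bp against 196 bp, the opposite order to that of all peaks. At the lowest background stood 30.6% (24.2 to 37.9) of them, against 32.7% on chromosome 4, 29.5% on chromosome 5 and 34.2% on chromosome 2. Among the remaining 1920 members the share was 36.9% (34.7 to 39.1), against 45.1%, 47.8% and 43.9%. The interval of the stronger peaks is too wide to show whether the same gap is absent there, and p is itself computed from the background.

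The stronger peaks were also counted by window. In the 127 windows of 1 Mb their variance exceeded the mean 1.18 times, with at most 6 in a window and 36 windows without any. Beyond counting error this leaves a coefficient of variation of 0.369, against 0.668 for the remaining members. The same pair of values was 0.465 and 0.649 on chromosome 4, 0.317 and 0.822 on chromosome 5 and 0.101 and 0.590 on chromosome 2, and these coefficients have no interval. From 50 to 60 Mb, the fullest window, only 13 of 313 members were of this strength (4.15%, 2.44 to 6.98), whereas from 120 to 130 Mb, the sparsest, 16 of 72 were (22.2%, 14.2 to 33.1). The neighbouring full window from 60 to 70 Mb held 24 of 281 (8.54%, 5.81 to 12.4), the highest number of any window and a share near that of the chromosome, so 37 of the 173 stronger peaks lay between 50 and 70 Mb. A higher share in sparse windows was also found elsewhere. On chromosome 8 it was 12.9%, 8.98%, 8% and 5.78% in 1 Mb windows of 1 to 9, 10 to 19, 20 to 29 and 30 or more peaks, against 13.7%, 8.45%, 6.07% and 4.76% on chromosomes 4, 5 and 2.

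Chromosome 8 was also divided in 3 equal parts of its span. The density was 14.7 peaks per Mb nearest the centromere, 21.3 in the middle and 12.9 nearest the telomere, whereas the stronger peaks stood at 1.14, 1.47 and 1.42 per Mb. The share at the lowest background was lower from part to part, with neighbouring intervals that overlapped, at 39.8% (36.1 to 43.7), 36.1% (33.1 to 39.3) and 32.8% (29 to 36.8). On chromosome 4 it was 48.9%, 46.1% and 30.4%, on chromosome 5 47.1%, 49.3% and 37.0%, and on chromosome 2 46.4%, 41.5% and 41.3%. The value of chromosome 8 was below those of all 3 in the centromeric and the middle part, and in the telomeric part it lay between those of chromosomes 4 and 5.

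The 10 members with the highest −log10 p had pileups of 17.2 to 26.5 fragments and folds of 9.35 to 12.8, and they ranked from 10 to 117 in the whole list. The 2 strongest lay about 526 kb apart in the sparse window from 120 to 130 Mb. The peak at chr8:125076549-125076759, of 211 bp, had a pileup of 26.5 on a background of 1.46 and a −log10 p of 25.9. The peak at chr8:125602333-125602468, of 136 bp, stood on the lowest background with a pileup of 22.6, 12.8 times enriched, and its −log10 p was 25.3. The first needed more fragments for a like score, since its background was higher.

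The third, at chr8:106940826-106941051, had a pileup of 22.4 and a −log10 p of 23.3, and chr8:108079567-108079796, in the same 10 Mb window, had 22.0 and 20.9. The fourth, at chr8:7510768-7511043, was the longest of the 10 with 276 bp, and had a pileup of 23.5. It was the only one of them in a run of full windows, with 41 peaks in its 1 Mb. The fifth, at chr8:115437427-115437683, had a pileup of 19.2 on the lowest background, and only it and the second were at that level.

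The remaining 4 of these members stood at chr8:76446978-76447181 with a pileup of 21.2, chr8:97548960-97549131 with 18.9, chr8:131050438-131050660 with 19.1 and chr8:79844166-79844359 with 17.2. None of the 10 lay between 50 and 70 Mb, where 28.4% of all members and 21.4% of the stronger ones stood. The longest member, chr8:69833299-69834215, had a pileup of only 6.66 over 917 bp. The member on the highest background, chr8:126393813-126393951, had a pileup of 22.0 on 3.61 fragments, a fold of 4.99.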

How the data were processed

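The deposited peak table of 1 Hmga2 ChIP library was used. Per the methods, the authors used Trim Galore for trimming and BWA for alignment, dropped reads with ambiguous positions and ran MACS2 with 1 input library as control. The labels name mm9, and the methods also name GRCm38. The labels and the methods also differ on the length of the sonicated fragments. The pileup column is a deposited signal, the mean fragment coverage of a peak at the depth of the library and not scaled to a common depth. The fold, −log10 p and −log10 q columns are deposited scores with a displaced decimal point: 34258 of 34597 folds exceeded pileup plus 1, the largest possible, 2076 of 2093 on chromosome 8. The digits were kept and the point was set where fold, pileup and p satisfied the Poisson relation. Restored p differed from it by 0.471% at the median and 12.8% at most. The restoration was tested on made-up peaks with known values. Their p was made from the same Poisson relation, so the test covers the placing of the point and not the relation itself. Length, another deposited column, is in bp. The list ends at a −log10 q of 1.01.

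Background was (pileup + 1) / fold − 1. Peaks were assigned by centre to windows of 1 and 10 Mb from position 1, and windows of 10 Mb with under 20 peaks were not compared. Density used the span from first to last peak. Shares have 95% Wilson intervals, counts exact Poisson intervals and medians order-statistic intervals. These were computed with Python 3.11.15, numpy 2.4.6, scipy 1.17.1 and pandas 2.3.3, and figures with matplotlib 3.10.9. The read depth of the libraries is unknown from the file used here, and their reads were not analysed. With 1 library there is no test between conditions. Alternatives were other peak sets, tolerances, windows and left-out windows. Named peaks were the 10 with the highest −log10 p. Named windows were the 5 fullest and 5 emptiest of 1 Mb, and named stretches the 3 longest without a peak. The chromosome, its comparison set and these measures were chosen with earlier results of these data known, and the classes of background, length and window count and the 3 parts of the chromosome after seeing the values.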

Additional observations from a re-analysis of the deposited data

How the results depend on the processing

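Of 87 alternative values, 67 moved by less than the counting interval of the reported value or, for counts of windows and the variance over the mean, by less than 1.5 times. Most of the 87 left out a single 10 Mb window, which removes few peaks, so this count says little about stability. Among the other settings more values moved than did not. The density ratio of chromosome 8 to chromosomes 4, 5 and 2 was 1.15 with all peaks, 1.22 for p of at most 1e-08, 1.06 without the window from 50 to 60 Mb and 1.08 without that from 60 to 70 Mb. The share at the lowest background was 46.4% within 5% of it (55.0% on chromosomes 4, 5 and 2), 34.2% within 0.5% (42.6%), 33.5% for q under 0.05 (42.9%), 43.0% for the shortest peaks (56.9%) and 30.6% for p of at most 1e-08 (32.5%), where the gap nearly closed. The cause was not tested. The median pileup was 7.03 for q under 0.05, 8.17 for folds of at least 4, 11.8 for p of at most 1e-08, 6.81 above the lowest background and 5.89 at it, the setting in which chromosome 8 was below the 5.95 of the others. The median length was 177 bp for q under 0.05 (170 bp) and 168 bp for folds of at least 4 (166 bp), and for p of at most 1e-08 the order turned, with 194 bp against 196 bp. The variance over the mean was 4.65 in 500 kb windows, 13.3 in 2 Mb windows, 5.15 for q under 0.05, 2.45 for folds of at least 4 and 1.18 for p of at most 1e-08. This measure depends by construction on the window size and the number of peaks, and what else moved it was not tested. The count of raised 10 Mb windows was 11 to 13 over the settings run, and was not run for p of at most 1e-08, where too few windows held 20 peaks. No paired analysis was possible because the series held 1 ChIP and 1 input library. Pileups under 10 fragments limit every value of a single peak, and values without replicate describe this library.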
